A study of Danio rerio with 9 samples.

Results

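Cone photoreceptors detect daylight and colour, and 7 genes of their light response were examined here across 3 exposure groups of zebrafish. They were taken as the rows whose gene name is opn1sw1, opn1sw2, opn1mw1 (opsins), gngt2a, gngt2b (transducin gamma subunits), pde6c (phosphodiesterase) or arr3a (arrestin). This choice of genes was made with earlier results of these data known. All 7 have a row in each of the 3 deposited tables, among 12126 single-gene names found in any of them. Polyadenylated RNA came from whole AB-strain zebrafish collected 96 h after fertilization, in 9 samples of 15 pooled embryos. The groups of 3 samples were a solvent control (0.01% DMSO), 16 µM perfluorobutane sulfonate (PFBS, a short-chain perfluorinated sulfonate) and 32 µM PFBS. The exposure labels of the PFBS groups give no DMSO content. The labels give 37 °C for all groups, which is unusually warm for zebrafish and may be an entry error. Embryos had the chorion removed by hand at 24 h and had their medium renewed every 24 h. Each group's 3 samples came from separate experiments.

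In a cone, light activates an opsin, the opsin activates the G protein transducin, and transducin switches on a phosphodiesterase that breaks down cyclic GMP, so that cation channels close. Opsin kinases and arrestin then end the signal, and calcium sensors restart cyclic GMP synthesis. Zebrafish have separate cones for ultraviolet, blue, green and red light, each with its own opsin, and larvae of this age see mainly with cones. Several cone genes are also used by photoreceptors of the pineal organ.

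Expression is given as FPKM, fragments scaled to transcript length and library size, with 1 value from the authors for each group. Values per sample were not analysed here, so no level below carries an error, the depth is unknown, and neither the overlap of groups nor the spread between replicates could be shown. The only test at hand is the q-value of the authors' deposited table, and a gene is said to rise or fall where q was under 0.05. How far that q-value accounts for the spread between replicates is unknown, since the test was not given in the sources used here. Ratios are log2 ratios of group FPKM. For the 7 genes, the level of a group differed by at most 0.02 (log2) between the 2 tables that hold it. In these bulk samples, fewer cones and less RNA per cone cannot be told apart.

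In control fish the opsin genes among the 7 and gngt2b were among the highest rows of the table. On the FPKM scale, opn1sw1, the ultraviolet opsin, had a control level of 1176 FPKM, rank 115 of 29280 rows. Next came gngt2b with 675.6 FPKM (rank 177), then the green opsin gene opn1mw1 with 508.5 FPKM (rank 234) and the blue opsin gene opn1sw2 with 372.2 FPKM (rank 294). The cone arrestin gene arr3a, used mainly by green and red cones, had 252.5 FPKM (rank 389). The lowest control levels were 61.4 FPKM for pde6c, the catalytic subunit of the cone phosphodiesterase (rank 1402), and 51.6 FPKM for gngt2a (rank 1676). The order of the 7 levels was the same in the control and at 16 µM except that gngt2a and pde6c changed places. Since no spread is known, it cannot be said which neighbours in this order differ.

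**Figure D1:**
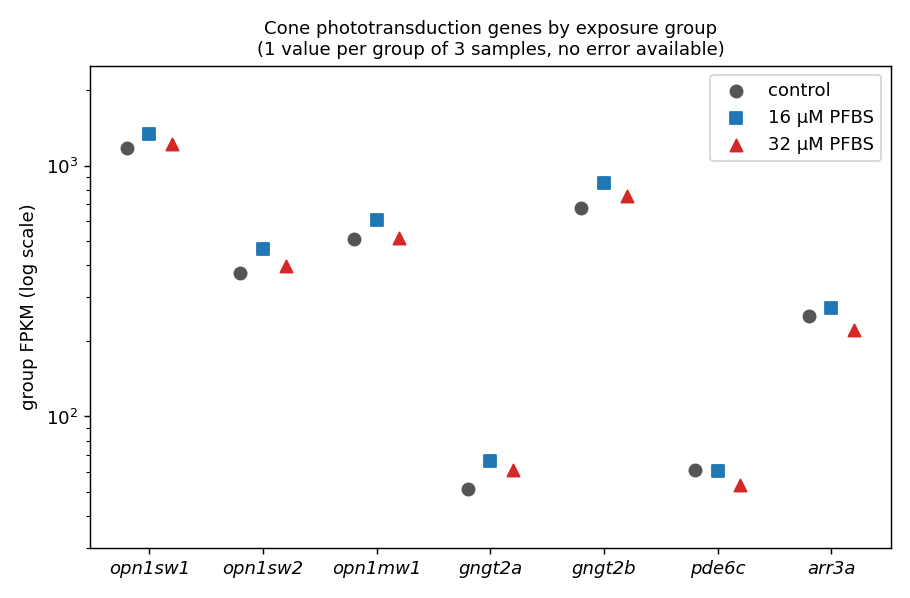
Group FPKM (log axis) of the 7 cone genes in the control, 16 µM and 32 µM PFBS groups, 1 point per group with no error available. In 6 of the 7 genes the 16 µM point is the highest of the 3, and for pde6c, at 60.5 FPKM, it lies just under the control.

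The defining markers place these levels among those of other light-sensing cells in the whole animal. Rod rhodopsin (rho) had 962.1 FPKM in the control and the rod transducin alpha gene gnat1 60.1 FPKM. The pineal markers were low, with 4.82 FPKM for the pineal opsin gene exorh and 2.38 FPKM for aanat2, which encodes an enzyme of melatonin synthesis. The exorh and rho rows each share a locus with another row in the tables.

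The first question was how the genes of cone light detection differ between 16 µM PFBS and the control. At 16 µM the blue opsin gene and both transducin gamma genes rose by 24.8% to 28.3% (authors' deposited table). The other opsin genes among the 7 had positive ratios without passing the test, and pde6c had a ratio of -0.02. By the q-values of the authors' deposited table, 3 of the 7 genes rose and 0 fell, where 0.26% of all rows were called in either direction (0.113% higher and 0.147% lower). All 7 genes lie above 50 FPKM, and among the 1793 rows at that level or higher 0.725% were called (0.558% higher and 0.167% lower). The median ratio of the 7 was 0.25 in the authors' deposited table, beside 0 over all rows and -0.02 over rows of at least 50 FPKM. Since the 7 were chosen with earlier results known, their counts and medians beside all rows, here and below, are a description and no test. Unadjusted p-values recovered from the q-values as upper bounds were under 0.05 for 4 genes with a positive ratio and for 0 with a negative one. The only negative member, pde6c, shared q = 0.998 with arr3a and opn1sw1, and rows tied there take a bound of 0.997. It could therefore not count, whatever its own p-value. The share of all rows with such a bound was not computed, so counts of this kind, here and below, have no background beside them.

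Among the opsins, opn1sw2 went from 372.2 FPKM in the control to 464.7 at 16 µM, a ratio of 0.32 in the authors' deposited table (q = 0.0219), or 24.8% more. Its row lies on chromosome 11 from 26406335 to 26408962 in danRer7. The green opsin gene opn1mw1 (chromosome 6, 41112745 to 41114687) went from 508.5 to 604.7 FPKM with a ratio of 0.25 in the authors' deposited table (q = 0.188). For opn1sw1 (chromosome 4, 12642188 to 12644842) the levels were 1176 and 1333 FPKM and the ratio 0.18 in the authors' deposited table (q = 0.998). The blue opsin was thus the only 1 of these 3 opsin genes past the threshold, although all 3 group values were higher at 16 µM; whether their ratios differ from each other was not tested.

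Transducin gamma holds the beta subunit of the G protein at the membrane and comes from a pair of cone genes in zebrafish. The more highly expressed gngt2b went from 675.6 to 855.1 FPKM, a ratio of 0.34 in the authors' deposited table (q = 0.0219). Its paralogue gngt2a (chromosome 3, 23384000 to 23387375) went from 51.6 to 66.3 FPKM, a ratio of 0.36 in the authors' deposited table (q = 0.0219). The pair thus rose by 26.6% and 28.3%, although the level of gngt2a is far below that of gngt2b. The gngt2b row is placed on chromosome 12 from 3804707 to 3893083, a span of 88376 bases that it shares exactly with the row of lsm12b, a gene of the LSM RNA-binding family. In the authors' deposited table the lsm12b row had 68.1 FPKM in the control and a ratio of 0.00 at 16 µM (q = 0.998), so only the gngt2b row of that locus was called. How reads were divided between those rows is not given in the sources used here.

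The remaining members, pde6c and arr3a, had smaller ratios at 16 µM. The pde6c row (chromosome 12, 5703895 to 5728750) had 61.4 FPKM in the control and 60.5 at 16 µM, a ratio of -0.02 in the authors' deposited table (q = 0.998). For arr3a (chromosome 10, 27435707 to 27446888), which quenches activated cone opsin, the levels were 252.5 and 270.6 FPKM and the ratio 0.10 in the authors' deposited table (q = 0.998). These are the members with the smallest ratios in that comparison.

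The next question was how the same genes differ at 32 µM PFBS from the control, with the control samples shared between both doses. Here the direction of the called genes was the opposite: arr3a and pde6c fell, each by 13.5% from the rounded ratio, and no opsin or transducin gene passed the test. By the q-values of the authors' deposited table, 2 of the 7 genes fell and 0 rose, where 1.83% of all rows were called (0.959% higher and 0.87% lower), and 5.66% of the 1766 rows at 50 FPKM or more (1.93% higher and 3.74% lower). Recovered p-values were under 0.05 for 3 genes with a positive ratio and 2 with a negative one. The median ratio of the 7 was 0.04 in the authors' deposited table, beside 0 over all rows and -0.04 over rows of at least 50 FPKM, and the members ranged from -0.21 to 0.22.

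The arr3a level was 254.2 FPKM in the control of that table and 221.3 at 32 µM, a ratio of -0.21 in the authors' deposited table (q = 0.00521). For pde6c the levels were 61.8 and 53.4 FPKM, and the ratio was again -0.21 in the authors' deposited table (q = 0.00918). The deposited ratios are rounded and carry no error, and whether the decreases of arr3a and pde6c differ was not tested. Both transducin gamma genes had positive ratios short of the threshold: gngt2a went from 52.0 to 61.0 FPKM, a ratio of 0.22 in the authors' deposited table (q = 0.0608). The ratio of gngt2b was 0.15, from 680.3 to 754.8 FPKM, in the authors' deposited table (q = 0.228). The lsm12b row at its locus had 0.03 in the authors' deposited table (q = 0.968).

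None of the 3 opsin genes passed the test at 32 µM. In the authors' deposited table the ratio was 0.10 for opn1sw2 (374.8 to 398.9 FPKM, q = 0.431). It was 0.04 for opn1sw1 (1184 to 1218 FPKM, q = 0.868) in the authors' deposited table. For opn1mw1 it was 0.02 (512.0 to 515.6 FPKM, q = 0.960) in the authors' deposited table.

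**Figure D2:**
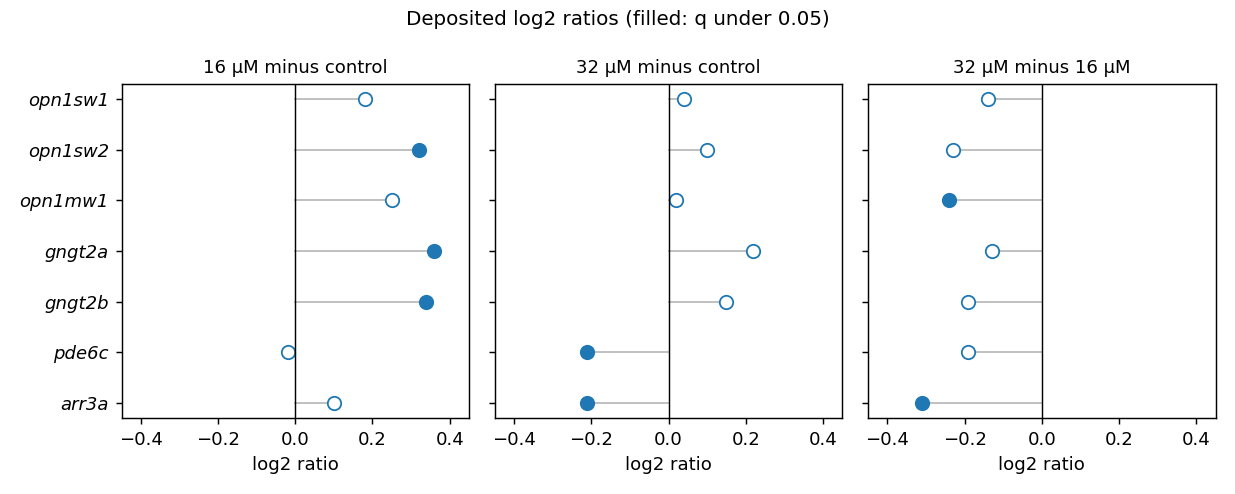
Deposited log2 ratio of each of the 7 cone genes in the 3 comparisons, with filled points for q under 0.05 and open points otherwise. At 16 µM the filled points are opn1sw2, gngt2a and gngt2b on the positive side, at 32 µM pde6c and arr3a at -0.21, and in the comparison of the doses opn1mw1 and arr3a on the negative side.

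The third comparison tests the difference between the doses directly. All 7 genes had a lower level at 32 than at 16 µM, and arr3a and opn1mw1 fell. The 3 tables share their samples in pairs, so a level at 16 µM that is high for any reason raises the first ratio and lowers the third, and the 3 sets of ratios are not independent. By the q-values of the authors' deposited table, 2 of 7 genes fell and 0 rose, where 0.329% of all rows were called (0.233% higher and 0.096% lower), and 0.885% of the 1807 rows at 50 FPKM or more (0.277% higher and 0.609% lower). The median ratio was -0.19 in the authors' deposited table, beside 0 over all rows and -0.03 over those of at least 50 FPKM. Among the latter, 62.6% of ratios were negative. Recovered p-values were under 0.05 for 6 of the 7 genes, all lower.

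For arr3a the level went from 274.4 FPKM at 16 µM to 221.3 at 32 µM, a ratio of -0.31 in the authors' deposited table (q = 0.0194). Among the 7 genes this was the largest decrease between the doses, 19.3%. For opn1mw1 the levels were 613.1 and 519.1 FPKM and the ratio -0.24 in the authors' deposited table (q = 0.0331). The blue opsin gene opn1sw2 had nearly the same ratio, -0.23 (471.1 to 401.7 FPKM), without passing the threshold in the authors' deposited table (q = 0.0688). The green opsin gene was therefore past the threshold between the doses but at neither dose against the control, and the blue one at 16 µM against the control but not between the doses.

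The remaining ratios between the doses were close together. In the authors' deposited table gngt2b had -0.19 (q = 0.515) and pde6c also -0.19 (q = 0.410). The ultraviolet opsin gene opn1sw1 had -0.14 (q = 0.974) and gngt2a -0.13 (q = 0.999) in the authors' deposited table. The members spanned 0.18 on the log2 scale between the doses, against 0.38 at 16 µM and 0.43 at 32 µM relative to the control.

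The blue and green opsin genes each have another opsin row next to them, and these neighbours were measured as well. The row that pools the red opsin genes opn1lw1 and opn1lw2 starts 2243 bases after the end of opn1sw2. It had 572.1 FPKM in the control and a ratio of 0.21 at 16 µM (q = 0.767) in the authors' deposited table. At 32 µM its ratio was 0.13 (q = 0.206) in the authors' deposited table. The second green opsin gene, opn1mw2, starts 2514 bases after opn1mw1 and was far lower, at 8.82 FPKM in the control. Its ratios were -0.29 at 16 µM (q = 0.810) and -0.19 at 32 µM (q = 0.423) in the authors' deposited table, the reverse sign of opn1mw1 without passing the test. Reads that fit both green or both red opsin genes could be split between copies, so the level of each copy is uncertain. The opsin genes opn1mw3 and opn1mw4 were sought by name, and no row under either name alone was found in any comparison.

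Summed over the 5 opsin rows, cone opsin FPKM was 2638 in the control and 3071 at 16 µM, both in the 16 µM comparison. In the 32 µM comparison it was 2656 in the control and 2775 at 32 µM. In this sum opn1sw1 made up 44.6% in the control, 43.4% at 16 µM and 43.9% at 32 µM. In the same order, the share of opn1sw2 was 14.1%, 15.1% and 14.4%, and that of opn1mw1 19.3%, 19.7% and 18.6%. The red pair took 21.7%, 21.5% and 22.9%. These are shares of group FPKM without replicates, so no interval or test can be given.

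**Figure D3:**
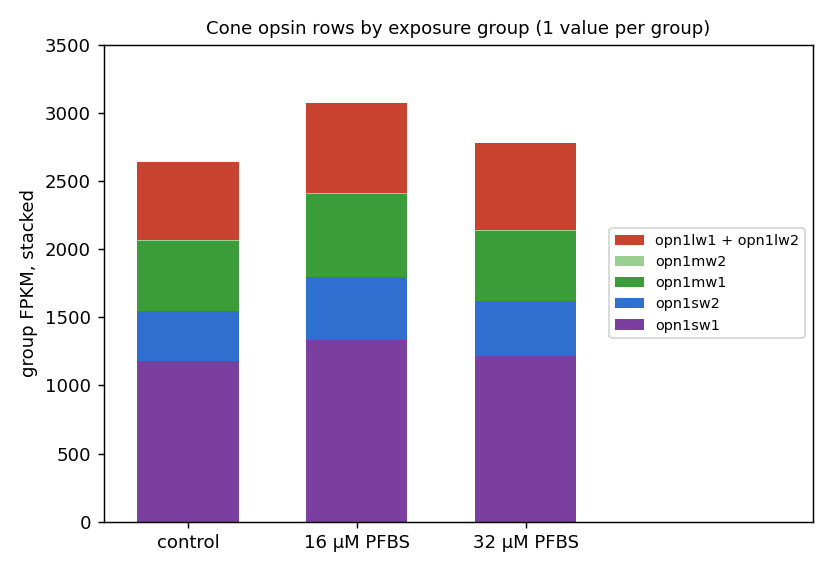
Stacked group FPKM of the 5 cone opsin rows in the control, 16 µM and 32 µM PFBS groups, 1 value per group. The stacks reach 2638, 3071 and 2775 FPKM, with opn1sw1 as the largest part of each and opn1mw2 barely visible. The 32 µM stack is from the 32 µM comparison, where the control sum was 2656 FPKM, and the others from the 16 µM comparison.

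The rest of the cone cascade was read from a list of 28 measured genes at each dose (29 between the doses), which includes the 7. Cone channel genes (cnga3 and cngb3 names) and the second cone arrestin gene arr3b were also sought. No row under those names alone was found, so the channel step is not covered. The pooled red opsin row is not in the list. Outside the 7, 0 of 21 genes were called at 16 µM and 0 of 21 at 32 µM in the authors' deposited tables, with recovered p-values under 0.05 for 2 and 4 genes, and 0 of 22 between the doses, with 3 genes. With 0.26%, 1.83% and 0.329% of all rows called in these comparisons, counts of 0 among so few genes are near the background and no result about them. Their median ratio was 0.00 at 16 µM, -0.08 at 32 µM and -0.10 between the doses in the authors' deposited tables. The 7 were chosen with earlier results of these data known.

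Other subunits of transducin did not pass the test at either dose. The alpha subunit gene gnat2 had ratios of 0.15 at 16 µM (q = 0.998) and 0.03 at 32 µM (q = 0.903) in the authors' deposited table. The cone beta subunit gene gnb3b had 0.16 (q = 0.998) and 0.05 (q = 0.777), and its paralogue gnb3a 0.00 and -0.04 (q = 0.998 and 0.880), in the authors' deposited table. The inhibitory subunit gene of the cone phosphodiesterase, listed as pde6h, had 292.0 FPKM in the control, with ratios of 0.23 at 16 µM (q = 0.998) and 0.00 at 32 µM (q = 0.997) in the authors' deposited table. Its level was higher than that of the catalytic gene pde6c and its ratio more positive at both doses, and the difference was not tested. Like gngt2b, the gnat2 and pde6h rows each share a locus with another row. The exchanger gene slc24a2, which clears calcium from cones, had 0.05 and 0.01 (q = 0.998 and 0.985) in the authors' deposited table. Its control level was 11.2 FPKM in the 16 µM comparison but 8.75 FPKM in the 32 µM one. Its level at 32 µM was likewise 8.75 FPKM there but 11.7 FPKM in the comparison between the doses. Both groups were thus lower for this gene in the 32 µM comparison, and the reason was not examined.

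Genes that end the response or adjust it by calcium had a median ratio of 0.00 over 16 genes at 16 µM and -0.10 with 32 µM in the authors' deposited table, with arr3a as the only called gene with 32 µM. Of the 16 ratios there 12 were negative by the authors' deposited table, from -0.47 to 0.13. Beside this, 48.4% of all rows and 65.8% of rows at 50 FPKM or more were negative at 32 µM. So were 14 of 16 rod genes, 17 of 19 lens genes and 2 of 4 pineal genes. The list holds kinases such as grk7a, recoverins and guanylate cyclase activators besides arrestin, and its control levels ran from 1.69 to 252.5 FPKM.

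**Figure D4:**
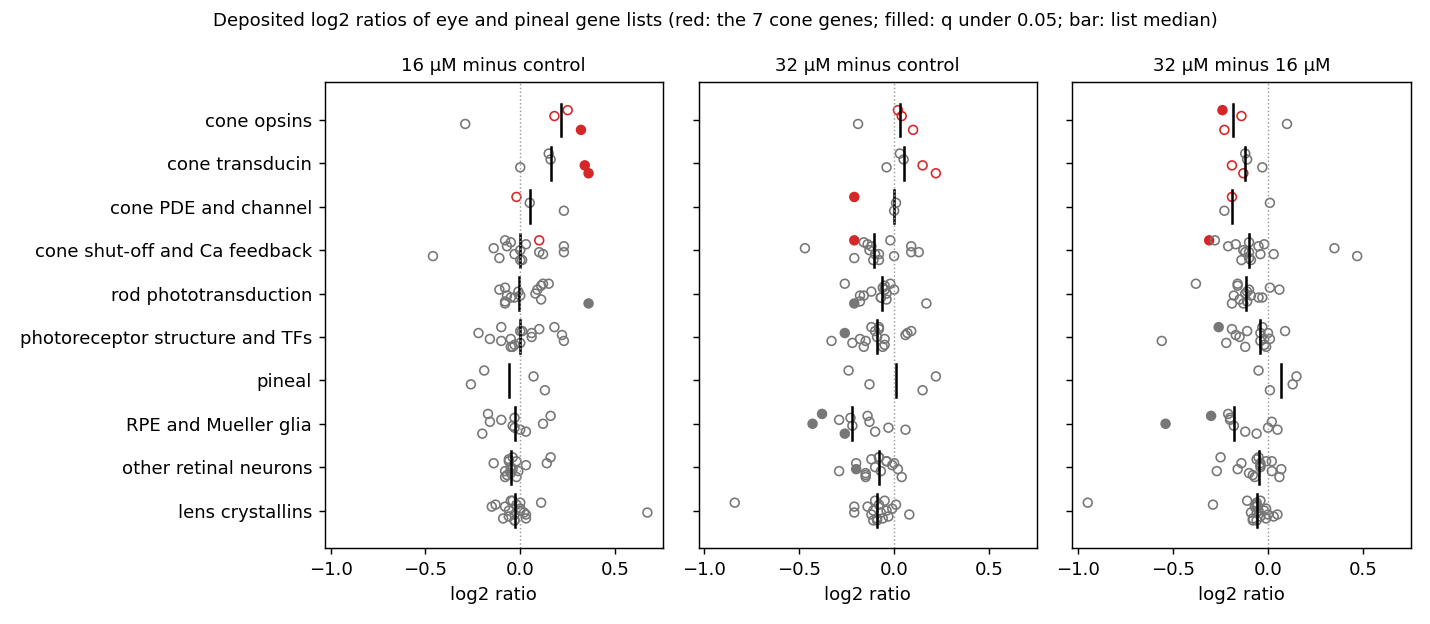
Deposited log2 ratios of genes in 10 lists for cone, rod, pineal, retinal and lens cells in the 3 comparisons, with the 7 cone genes in red, filled points for q under 0.05 and a bar at each list median. At 16 µM the filled points are 3 cone genes and 1 rod gene, all positive, and at 32 µM every filled point is negative.

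Genes listed as markers of the neighbouring cell types are given for comparison. The RNA came from whole animals, so values of these lists, here and below, may include expression in other tissues, which was not examined. Counts of called genes stand beside 0.26% of all rows called at 16 µM (0.113% higher) and 1.83% at 32 µM (0.87% lower). Of 16 rod genes, gngt1, the rod transducin gamma gene, rose at 16 µM with a ratio of 0.36 in the authors' deposited table (q = 0.0219). At 32 µM the rod arrestin gene saga fell by 0.21 (q = 0.0125) in the authors' deposited table, and its paralogue sagb had -0.18 (q = 0.265). Rhodopsin had -0.01 and -0.12 (q = 0.998 and 0.387), gnat1 0.15 and -0.02 (q = 0.998 and 0.959), and the rod phosphodiesterase gene pde6a 0.08 and -0.04 (q = 0.998 and 0.915) at the 2 doses in the authors' deposited table. The rod list median was -0.01 at 16 µM and -0.07 at 32 µM in the authors' deposited table. At 16 µM gngt1 was the 1 rod gene called, and at 32 µM saga.

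Among 17 genes of photoreceptor structure and transcription, six7, a transcription factor gene needed for green opsin expression in zebrafish, fell by 0.26 at 32 µM (q = 0.0125) in the authors' deposited table. Its ratio at 16 µM was -0.22 (q = 0.729) in the authors' deposited table. Of the green opsin genes, opn1mw1 had a positive ratio at both doses and opn1mw2 a negative one, and a link to six7 was not tested. The retinoschisin gene rs1a, which encodes an adhesion protein secreted by photoreceptors, fell by 0.26 between the doses (q = 0.0194) in the authors' deposited table. The median of these genes was 0.00 at 16 µM and -0.09 at 32 µM in the authors' deposited table.

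Among 11 genes of the pigment epithelium and Müller glia, 3 fell with 32 µM PFBS by the authors' deposited table: rlbp1b by 0.43 (q = 0.00521), dct by 0.38 (q = 0.00521) and pmela by 0.26 (q = 0.00521), where 0.87% of all rows were called lower. The first encodes a retinal-binding protein of the visual cycle, and the others melanin synthesis and melanosome proteins that pigment cells of the skin also express. Between the doses rlbp1b fell by 0.54 (q = 0.0194) and the visual cycle isomerase gene rpe65a by 0.30 (q = 0.0456) in the authors' deposited table. This list had a median of -0.03 at 16 µM and -0.22 at 32 µM in the authors' deposited table.

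Among 17 genes listed as markers of other retinal neurons, vsx1, a bipolar cell transcription factor gene, fell by 0.20 at 32 µM (q = 0.0243) in the authors' deposited table. In whole-animal RNA the values of this list need not come from the retina. The median of these genes was -0.05 at 16 µM and -0.08 at 32 µM in the authors' deposited table. None of 20 lens genes was called at 16 µM (recovered p under 0.05 for 0) and none of 19 at 32 µM (recovered p under 0.05 for 4) in the authors' deposited table, with medians of -0.03 and -0.09. Of 4 pineal genes none was called at either dose in the authors' deposited tables, and recovered p-values were under 0.05 for 0 of them at each dose. At 16 µM the lens and pineal genes were tied at q = 0.998, where the bound is 0.997, so their counts of 0 there follow from the ties. Summed pineal marker levels were 12.8 FPKM in the control and 12.5 FPKM at 16 µM, and 12.9 and 13.4 FPKM for the control and 32 µM in their table. Among all of these lists the positive medians at 16 µM were those of the cone opsins (0.21), cone transducin (0.16) and cone phosphodiesterase and exchanger genes (0.05) in the authors' deposited table. These lists include members of the 7, which were chosen with earlier results known, so their medians are no separate support. Without the 7, the cone lists together had a median of 0.00 at 16 µM, and the cone shut-off list, which includes arr3a, also had 0.00. The part of cell composition in the cone values was not tested.

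The genes whose ratios at the 2 doses lay nearest to the medians of the 7 cone genes (0.25 and 0.04) were sought among 6035 other genes with at least 10 FPKM in the control. With only 2 ratios per gene, both against the same control, such likeness is a description. The nearest were s100t, an S100 calcium-binding protein gene, at a distance of 0, ufc1 at 0.02, entpd3 and mustn1 each at 0.03, and rpa3 at 0.03. A sixth gene tied with the last. None of the 5 was called at either dose in the authors' deposited tables, with q between 0.211 and 0.998.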

How the data were processed

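Per the labels' protocols, stranded libraries were made from polyadenylated RNA and sequenced as paired ends. Cufflinks and the build danRer7 are named, per the submitters' processing notes; versions, aligner, annotation and test were not given in the sources used here. Each pair of groups has its own table, in which the authors gave each group's log2 FPKM, a log2 ratio (second group minus first) and a q-value, per the file headers. The ratio equalled the difference of the levels within 0.01, and the authors' calls were the rows with a q-value under 0.05, both checked on every row. A deposited log2 value of -10 stands for an FPKM of 0.

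FPKM was computed as 2 to the power of the deposited value. No fit was run, because no value per sample was at hand; the design had named the q-values as the test. Unadjusted p-values are q times the largest tied rank divided by the number of rows, tested on simulated data. They are upper bounds, so counts under 0.05 are minimum counts, and the share of all rows under 0.05 was not computed. Rows tied at 1 q-value share 1 bound, which was 0.997 at q = 0.998 in the 16 µM comparison. Coordinates are printed as the tables give them. Genes with several rows enter lists by their highest row, and rows pooling several names are left out of lists. Named genes were the 7 members, list genes called in any comparison, the other opsin, transducin, phosphodiesterase and exchanger genes, fixed rod and pineal markers, and the 5 nearest genes. The members and lists were chosen with earlier results of these data known. All 7 symbols match current RefSeq symbols. Python 3.11.15, pandas 2.3.3 and matplotlib 3.10.9 were used.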

Additional observations from a re-analysis of the deposited data

How the results depend on the processing

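With q under 0.01, 0 of the 7 cone genes were called at 16 µM and 0 between the doses, and at 32 µM arr3a and pde6c were; the smallest q in those 2 tables is 0.0219 and 0.0194, so no row could pass there. With q under 0.10 the counts were 3, 3 and 3 for 16 µM, 32 µM and the doses against each other. The share of all rows called was computed only at q under 0.05, where it was 0.26%, 1.83% and 0.329% in the same order. The counts at 0.10, and at 0.01 for 32 µM, therefore have no such share beside them and cannot be judged against it. Leaving out gngt2b, which shares its locus, gave a median ratio of 0.215 at 16 µM, and 2 called genes in each comparison. The ratio on the log2(FPKM + 1) scale, the ratio after centring on the median of expressed rows, and the difference of the ratios at both doses kept the direction of each member in 49 of 49 recomputed values. That median was 0 in each comparison, so centring changed nothing. At levels above 50 FPKM, adding 1 could hardly change a sign, and the difference of ratios reuses the same group values. The count is therefore no evidence of robustness. Including rows that pool a member with other names added no called row in any comparison. The share of rows called depends on level: it was 0.623%, 3.24% and 0.63% among rows of at least 10 FPKM; the limit of 50 FPKM was chosen after seeing the data. No paired analysis was possible because the tables hold no values per sample, and for the same reason no replicate could be left out. Depth per sample is unknown, so what it limits could not be shown.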
